A study of Mus musculus with 12 samples.

Results

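The genes described here are 43 protein-coding genes of the G2 phase and of mitosis, found in the table by their symbols. They are 43 of the 23446 genes in the deposited count table. Every one was present, and the least read of them, Cdc25c, had 1120 reads over the 12 libraries, so none fell under the minimum of 10 reads. All 43 also passed the filter on low counts and were tested among 12230 genes.

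The cells were C2C12 myoblasts, an established clonal line of mouse muscle precursor cells that multiply in growth medium (GM) and form multinucleate muscle cells in differentiation medium (DM). The 12 RNA-seq libraries form 4 groups of 3. DM-AA cells were in DM with the ketone body acetoacetate (AA) for 12 h. DM-PBS cells were in DM with phosphate-buffered saline (PBS) for 12 h, without AA. GM-AA cells were in GM with AA for 12 h, and GM-PBS cells were in GM with PBS for 12 h, without AA. The sources used here give neither the dose and salt of AA nor the total time in DM. Nothing in the labels says that the 3 libraries of a group were grown as separate cultures. A p-value here therefore sets a difference against the spread of such libraries, which may be technical.

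Libraries held 8027518 to 8245402 counted reads in DM-AA, 7959519 to 9893564 in DM-PBS, 8484417 to 8801619 in GM-AA and 8292006 to 8965129 in GM-PBS. The 5 myoblast markers (Myod1, Myf5, Des, Pax7 and Cdh15) were all detected, and together reached 1866 to 2515 CPM (reads scaled to a common library size) in every library. Des made up most of that sum, with group means of 1451 to 1789 CPM, against 22.6 to 39.4 CPM for Pax7, the lowest. Marker lists of immune, endothelial, epithelial, adipocyte and bone-forming cells summed to at most 4.28 CPM each, and most of that highest sum was Cd68, with Plin1, Lep and Ibsp at 0. Replicates of a group differed by more than counting noise, with a chi-square per degree of freedom between 1.46 and 2.94 for every pair.

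Entry into mitosis is driven by Cdk1 bound to cyclin B, which Cdc25 phosphatases switch on and the ubiquitin ligase APC/C switches off by destroying the cyclin. The kinases Plk1, Aurora A and Aurora B then build the spindle and correct its attachments, while the spindle checkpoint holds back APC/C until every kinetochore is attached. Most genes of this program are shut by the DREAM complex in resting cells and opened late in the cycle by B-Myb with MuvB and by FoxM1. These factors act through the cell cycle genes homology region (CHR), and the neighbouring CCAAT boxes are bound by NF-Y. Muscle differentiation is coupled to withdrawal from the cell cycle, and this gene set falls in cells that leave it.

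Promoter stretches of 6 of the genes are shown because they carry these 2 kinds of letters in different numbers, and because the genes differ in the results that follow. They run from base -160 to base -1 before the annotated start, 5′ to 3′ on the gene's own strand, from RefSeq on GRCm38.p6. Capitals mark a CHR (TTTGAA or TTCGAA, or TTCAAA where it lies on the other strand) or a CCAAT box (CCAAT, or ATTGG on the other strand). No other form of the CHR was searched for.

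Cdk1 (chr10:69352913-69353072, minus strand): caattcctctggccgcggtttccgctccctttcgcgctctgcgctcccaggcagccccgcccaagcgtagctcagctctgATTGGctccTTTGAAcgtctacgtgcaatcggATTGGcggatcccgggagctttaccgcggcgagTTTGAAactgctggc

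Ccnb1 (chr13:100786487-100786646, minus strand): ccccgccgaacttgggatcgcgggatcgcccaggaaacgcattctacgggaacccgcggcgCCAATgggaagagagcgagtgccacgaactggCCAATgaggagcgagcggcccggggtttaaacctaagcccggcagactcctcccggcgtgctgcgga

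Ube2c (chr2:164769769-164769928, plus strand): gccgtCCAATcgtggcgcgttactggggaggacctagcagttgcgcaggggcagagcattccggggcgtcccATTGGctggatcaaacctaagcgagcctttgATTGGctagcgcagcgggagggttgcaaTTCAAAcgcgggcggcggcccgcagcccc

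Cdc20 (chr4:118437344-118437503, minus strand): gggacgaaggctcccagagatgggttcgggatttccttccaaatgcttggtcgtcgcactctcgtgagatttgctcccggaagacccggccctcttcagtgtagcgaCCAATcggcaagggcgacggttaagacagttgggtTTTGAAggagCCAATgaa

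Kif11 (chr19:37376222-37376381, plus strand): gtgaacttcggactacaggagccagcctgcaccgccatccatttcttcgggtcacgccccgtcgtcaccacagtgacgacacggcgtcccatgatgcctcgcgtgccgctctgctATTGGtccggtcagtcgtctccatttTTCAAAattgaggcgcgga

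Top2a (chr11:99024190-99024349, minus strand): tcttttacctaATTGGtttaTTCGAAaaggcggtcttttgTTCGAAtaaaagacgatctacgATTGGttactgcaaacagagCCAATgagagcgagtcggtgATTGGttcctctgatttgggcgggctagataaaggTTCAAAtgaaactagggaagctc

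The Cdk1 stretch held 2 CHR matches and 2 CCAAT boxes, and that of Ccnb1, which encodes its partner cyclin B1, held 2 CCAAT boxes and 0 CHR matches. The Ube2c stretch held 1 CHR match and 3 CCAAT boxes, that of Cdc20 1 CHR match and 2 CCAAT boxes, and that of Kif11 1 of each. Top2a had the most of the 6, with 3 CHR matches and 4 CCAAT boxes.

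Of the 43 genes, 35 matched a RefSeq window of 250 bases before to 50 bases after the start. The 8 without a window were Aurkb, Ccna2, Cdc25c, Foxm1, Incenp, Kif20a, Smc4 and Tpx2. A CHR match on either strand was found in 29 of the 35 (82.9%), against 5854 of 27025 genes with a window (21.7%). A CCAAT box was also found in 29 of 35 (82.9%), against 11096 of 27025 (41.1%). Both motifs lay in the same window in 26 of 35 (74.3%), against 2328 of 27025 (8.61%). At least 2 CCAAT boxes lay in the same window in 18 of 35 (51.4%), against 3585 of 27025 (13.3%). Neither motif contains the other, so no match counts for both. Birc5, Mad2l1 and Nusap1 held neither, while Ccnb1, Cenpe and Nek2 held a CCAAT box without a CHR match. A match of letters is a description and not a bound site. A window without a CHR match was searched for the letters named above only, and is not shown to lack a CHR.

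Per unit of length, the proliferation marker Mki67 had the highest level in GM-PBS, with 55.4 ± 0.932 RPKM, the authors' read count scaled by gene length and library size (SD, n = 3). DNA topoisomerase Top2a followed with 46.4 ± 1.49 RPKM, the APC/C ubiquitin-conjugating enzyme Ube2c with 44.9 ± 2.66 RPKM and cyclin A2 (Ccna2) with 43.2 ± 2.17 RPKM in the same libraries. These last 3 lay within about their spreads of one another. The lowest levels in GM-PBS were those of the phosphatase gene Cdc25c with 2.36 ± 0.777 RPKM, the checkpoint kinase gene Ttk with 5.22 ± 0.153 RPKM and the kinetochore gene Ndc80 with 5.43 ± 0.589 RPKM.

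Summed over all 43 genes, DM-AA libraries held 5912, 5729 and 5950 CPM. DM-PBS libraries held 4962, 4949 and 4636 CPM, GM-AA libraries 4639, 4759 and 4884 CPM, and GM-PBS libraries 4988, 5008 and 5102 CPM. All 3 DM-AA libraries stood above the other 9, and DM-PBS overlapped GM-AA. As a share of all reads the genes took 0.595 ± 0.0122% in DM-AA, 0.483 ± 0.0165% in DM-PBS, 0.477 ± 0.0104% in GM-AA and 0.495 ± 0.00796% in GM-PBS (SD, n = 3 each). In RNA from whole cultures, fewer cells in G2 and mitosis and less RNA per such cell cannot be told apart.

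**Figure D1:**
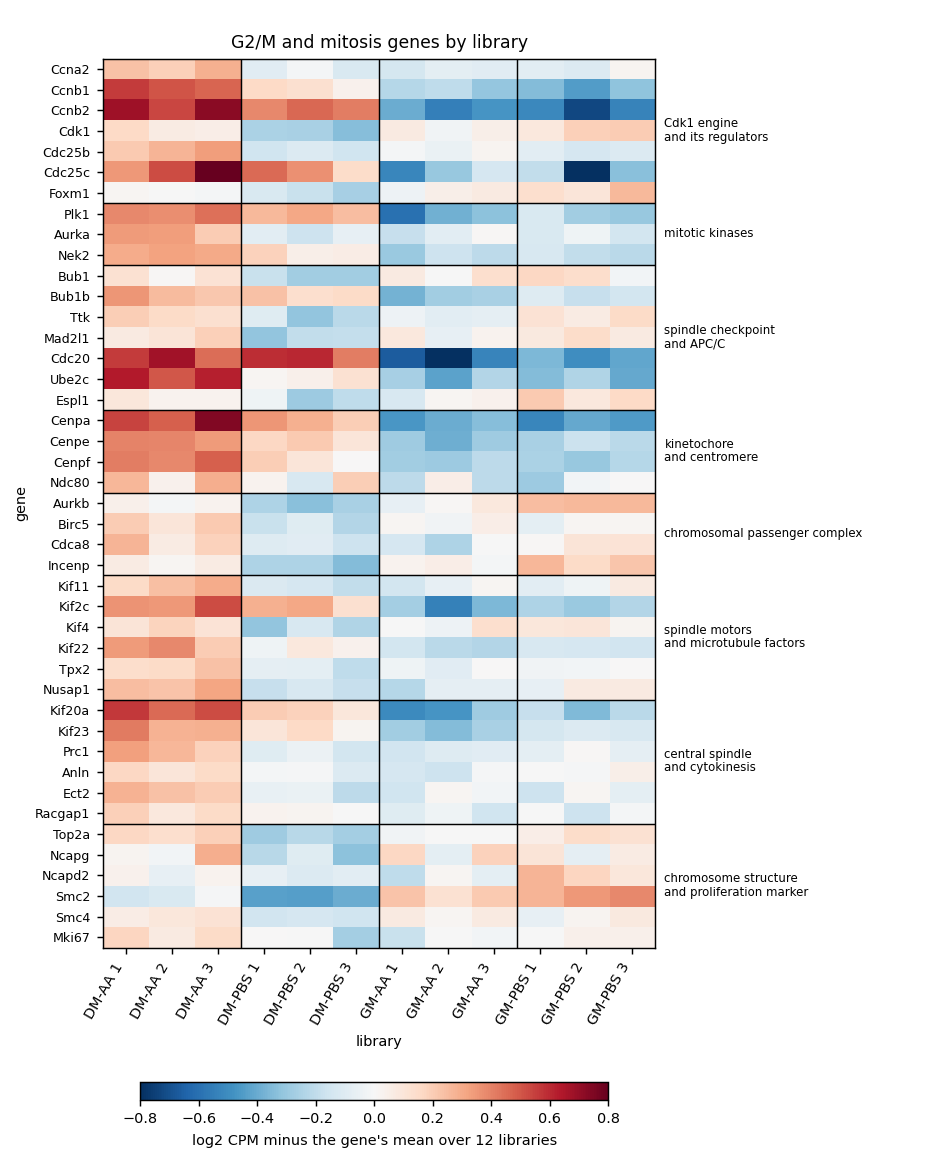
Log2 CPM of each of the 43 genes (rows, grouped by role) in each of the 12 libraries (columns), minus the gene's mean over the libraries; values beyond 0.8 either way take the end colour. The DM-AA columns have 42, 38 and 41 of the 43 genes above their own mean, against 17, 16 and 16 in DM-PBS. The counts are 8, 9 and 15 in GM-AA and 14, 19 and 22 in GM-PBS. The same count over all tested genes was not taken.

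The first comparison asked how AA acted on these genes in differentiation medium. In DM-AA against DM-PBS, 35 of the 43 genes rose and 0 fell, at a false discovery rate of 5% over all tested genes (edgeR's quasi-likelihood test with Benjamini-Hochberg adjustment, called the edgeR adjusted p from here on). Over all genes tested, 12.6% were called higher and 13.8% lower in the same comparison. The median log2 fold change of the 43 genes was 0.31, a rise of 23.8%, against 0.0021 for all tested genes. Every one of the 43 log2 fold changes was above 0, between 0.02 for Cdc20 and 0.53 for Ube2c. At an unadjusted p under 0.05 the counts were 38 higher and 0 lower, against 2205 and 2315 of all 12230 tested genes. DESeq2 called 35 higher and 0 lower, and its share over all genes was not taken.

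Among the genes of the Cdk1 engine and its regulators, 6 of 7 rose. Cdk1 itself had 79.9, 74.7 and 74.2 CPM in DM-AA, 60.1, 59.7 and 56.5 CPM in DM-PBS, 75.0, 69.9 and 74.0 CPM in GM-AA, and 75.8, 81.7 and 82.1 CPM in GM-PBS. The DM-PBS libraries were the low ones, and every DM-AA library lay above every DM-PBS library. Its log2 fold change with AA in DM was 0.37 ± 0.058 (SE), with an edgeR adjusted p of 7.15e-06. Ccnb1 had 83.9, 80.5 and 78.3 CPM in DM-AA, 63.5, 62.0 and 58.3 CPM in DM-PBS, 48.5, 49.4 and 45.8 CPM in GM-AA, and 44.6, 41.7 and 45.5 CPM in GM-PBS. Its levels stepped down over these groups with no overlap between them, and the change with AA in DM was 0.40 ± 0.058 on the log2 scale (edgeR adjusted p = 2.43e-06).

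Cdc25b, a phosphatase that activates Cdk1, had 172, 181 and 188 CPM in DM-AA, 134, 138 and 134 CPM in DM-PBS, 148, 144 and 152 CPM in GM-AA, and 141, 136 and 139 CPM in GM-PBS. DM-AA stood above all other libraries, with a log2 fold change over DM-PBS of 0.42 ± 0.048 (edgeR adjusted p = 2.56e-08). Foxm1, the forkhead activator of the late cell cycle genes, had 222, 219 and 217 CPM in DM-AA, 202, 194 and 183 CPM in DM-PBS, 214, 227 and 230 CPM in GM-AA, and 241, 235 and 263 CPM in GM-PBS. Here GM-PBS was highest and DM-PBS lowest, and the rise with AA in DM was 0.18 ± 0.051 (edgeR adjusted p = 0.00707). Cyclin A2 rose by 0.31 ± 0.048 on the log2 scale, and cyclin B2 (Ccnb2) by 0.23 ± 0.066. The call for Ccnb2 was lost without the third DM-AA library (edgeR adjusted p = 0.0720). Cdc25c, the least read gene, stood at 13.1, 14.8 and 18.4 CPM in DM-AA and 14.1, 13.3 and 11.4 CPM in DM-PBS, and these overlapped (log2 fold change 0.25 ± 0.15, edgeR adjusted p = 0.218).

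Of the 3 mitotic kinases in the set, 2 passed the test. Aurka, which matures the spindle poles, had 62.1, 61.8 and 56.5 CPM in DM-AA, 46.1, 43.7 and 46.7 CPM in DM-PBS, 43.1, 46.1 and 49.2 CPM in GM-AA, and 45.1, 47.9 and 44.3 CPM in GM-PBS. DM-AA stood alone above 3 overlapping groups, and the log2 fold change over DM-PBS was 0.40 ± 0.066 (edgeR adjusted p = 1.69e-05). Nek2, a kinase of centrosome separation, had 109, 111 and 110 CPM in DM-AA, 101, 91.6 and 92.7 CPM in DM-PBS, 72.3, 79.2 and 76.7 CPM in GM-AA, and 81.3, 77.5 and 76.5 CPM in GM-PBS. Both DM groups lay above both GM groups, and DM-AA exceeded DM-PBS by 0.21 ± 0.052 (edgeR adjusted p = 0.00320). Plk1, the polo-like kinase that acts from mitotic entry to cytokinesis, had 106, 105 and 111 CPM in DM-AA, 97.5, 101 and 96.7 CPM in DM-PBS, 53.8, 62.4 and 64.9 CPM in GM-AA, and 74.9, 67.1 and 66.1 CPM in GM-PBS. The DM-AA libraries lay above the DM-PBS ones without overlap, but the difference of 0.13 ± 0.058 did not pass the test (edgeR adjusted p = 0.104). It passed with the trend over GC content and length removed, at 0.19 (edgeR adjusted p = 0.00708), and with only the DM groups fitted (edgeR adjusted p = 0.0486).

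Of the 7 genes of the spindle checkpoint and APC/C, 5 rose with AA in DM, and the 7 held both the largest and the smallest difference of the whole set. Ube2c, which loads ubiquitin for APC/C, had 129, 117 and 128 CPM in DM-AA, 83.7, 85.3 and 90.4 CPM in DM-PBS, 69.1, 61.6 and 70.4 CPM in GM-AA, and 65.2, 70.2 and 62.5 CPM in GM-PBS. It was 1.44-fold higher in DM-AA than in DM-PBS (log2 0.53 ± 0.057, edgeR adjusted p = 8.68e-09). Cdc20, the activator of the same ligase, had 94.7, 103 and 87.8 CPM in DM-AA, 96.7, 97.5 and 85.4 CPM in DM-PBS, 40.5, 36.7 and 44.6 CPM in GM-AA, and 50.2, 45.6 and 48.3 CPM in GM-PBS. The DM groups overlapped almost completely (log2 fold change 0.02 ± 0.063, edgeR adjusted p = 0.814). Mad2l1, the checkpoint protein that binds Cdc20, had 69.5, 70.9 and 75.5 CPM in DM-AA, 53.0, 57.7 and 57.9 CPM in DM-PBS, 70.0, 63.1 and 67.2 CPM in GM-AA, and 69.6, 73.0 and 69.4 CPM in GM-PBS. DM-PBS was the low group, and Mad2l1 was higher in DM-AA by 0.36 ± 0.061 (edgeR adjusted p = 2.34e-05). The checkpoint kinase genes Bub1 and Ttk rose by 0.32 ± 0.068 and 0.36 ± 0.086, and the separase gene Espl1 by 0.22 ± 0.060 on the log2 scale. Without the second DM-PBS library the call for Espl1 was lost (edgeR adjusted p = 0.0690). The difference for Bub1b, which encodes the checkpoint protein BubR1, was 0.10 ± 0.054 and did not pass (edgeR adjusted p = 0.194).

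At the kinetochore and centromere, 3 of 4 genes rose. Cenpf, an outer kinetochore protein that accumulates in G2, had 364, 358 and 382 CPM in DM-AA, 314, 293 and 275 CPM in DM-PBS, 226, 224 and 237 CPM in GM-AA, and 230, 222 and 234 CPM in GM-PBS. The 2 GM groups overlapped, and DM-AA lay above DM-PBS by 0.32 ± 0.049 on the log2 scale (edgeR adjusted p = 4.22e-06). Cenpa, the centromeric histone H3 variant, had 65.3, 62.3 and 74.9 CPM in DM-AA, 57.3, 54.5 and 51.5 CPM in DM-PBS, 32.5, 34.0 and 35.3 CPM in GM-AA, and 31.2, 33.7 and 32.7 CPM in GM-PBS. Its order of groups was that of Cenpf, with a log2 fold change of 0.31 ± 0.067 in DM (edgeR adjusted p = 0.000681). The kinetochore motor gene Cenpe rose by 0.22 ± 0.048. Ndc80, the microtubule-binding kinetochore gene, had overlapping DM groups and a difference of 0.17 ± 0.10 that did not pass (edgeR adjusted p = 0.258).

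All 4 genes of the chromosomal passenger complex, which corrects faulty spindle attachments and starts cytokinesis, rose with AA in DM. Aurkb, its kinase, had 73.5, 70.8 and 73.1 CPM in DM-AA, 60.3, 56.7 and 59.7 CPM in DM-PBS, 68.3, 71.9 and 75.7 CPM in GM-AA, and 84.9, 85.5 and 85.6 CPM in GM-PBS. DM-PBS was lowest, GM-PBS highest, and the AA groups of the 2 media overlapped between them. Incenp, its scaffold, had 102, 98.6 and 102 CPM in DM-AA, 82.2, 82.4 and 76.7 CPM in DM-PBS, 99.6, 102 and 96.4 CPM in GM-AA, and 117, 109 and 114 CPM in GM-PBS, which is the same order. Birc5, which encodes survivin, had 142, 132 and 143 CPM in DM-AA, 109, 115 and 105 CPM in DM-PBS, 125, 121 and 128 CPM in GM-AA, and 117, 125 and 125 CPM in GM-PBS. For Birc5 DM-AA was the highest group. The log2 fold changes with AA in DM were 0.30 ± 0.057 for Aurkb, 0.33 ± 0.053 for Incenp, 0.34 ± 0.051 for Birc5 and 0.30 ± 0.076 for Cdca8, the borealin gene, with edgeR adjusted p-values of at most 0.00353.

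Of the 6 genes of spindle motors and microtubule factors, 5 rose. Kif11, the motor that pushes spindle poles apart, had 101, 107 and 112 CPM in DM-AA, 84.0, 82.7 and 79.5 CPM in DM-PBS, 82.2, 87.0 and 91.9 CPM in GM-AA, and 85.8, 88.8 and 95.6 CPM in GM-PBS. DM-AA stood above the other groups, and exceeded DM-PBS by 0.38 ± 0.056 (edgeR adjusted p = 3.51e-06). Nusap1, a microtubule bundling protein, had 67.4, 66.5 and 70.6 CPM in DM-AA, 50.0, 52.0 and 50.0 CPM in DM-PBS, 48.5, 54.1 and 53.9 CPM in GM-AA, and 54.3, 59.8 and 59.8 CPM in GM-PBS. Its difference between the DM groups was 0.43 ± 0.063 (edgeR adjusted p = 2.41e-06), and DM-AA again stood above every other library. The chromokinesin genes Kif4 and Kif22 rose by 0.36 ± 0.064 and 0.29 ± 0.073, and Tpx2, an activator of Aurora A, by 0.29 ± 0.049. Kif2c, a microtubule depolymerase of the centromere, differed by 0.17 ± 0.071 and did not pass (edgeR adjusted p = 0.0768).

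In the central spindle and cytokinesis group, 5 of 6 rose. Prc1, which bundles the antiparallel microtubules of the central spindle, had 175, 167 and 158 CPM in DM-AA, 131, 135 and 126 CPM in DM-PBS, 125, 130 and 131 CPM in GM-AA, and 132, 140 and 133 CPM in GM-PBS. DM-AA alone stood apart, by 0.35 ± 0.049 over DM-PBS (edgeR adjusted p = 1.09e-06). Kif20a, a motor of the central spindle, had 112, 104 and 109 CPM in DM-AA, 87.4, 86.6 and 81.1 CPM in DM-PBS, 53.6, 55.0 and 62.4 CPM in GM-AA, and 66.8, 59.5 and 65.5 CPM in GM-PBS. Both DM groups exceeded both GM groups, and the AA difference in DM was 0.35 ± 0.058 (edgeR adjusted p = 1.60e-05). Ect2, the exchange factor that activates RhoA, rose by 0.34 ± 0.067, the motor gene Kif23 by 0.23 ± 0.062 and the ring protein gene Anln by 0.18 ± 0.049. Racgap1, the partner of Kif23, differed by 0.13 ± 0.050, just outside the threshold (edgeR adjusted p = 0.0627), and passed in 5 of the alternative fits (edgeR adjusted p = 0.0295 to 0.0471).

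Of the genes of chromosome structure, with the proliferation marker, 5 of 6 rose. Top2a, which untangles sister chromatids, had 397, 388 and 404 CPM in DM-AA, 291, 303 and 293 CPM in DM-PBS, 348, 353 and 353 CPM in GM-AA, and 367, 391 and 386 CPM in GM-PBS. DM-PBS was the lowest group with no overlap, and the AA difference in DM was 0.42 ± 0.044, with the smallest edgeR adjusted p of the set, 4.04e-09. Smc2, a core subunit of condensin, had 139, 143 and 154 CPM in DM-AA, 115, 114 and 118 CPM in DM-PBS, 182, 168 and 179 CPM in GM-AA, and 187, 197 and 202 CPM in GM-PBS. Smc2 rose with AA in DM by 0.33 ± 0.052 and stayed below both GM groups. Mki67 had 973, 907 and 962 CPM in DM-AA, 866, 862 and 715 CPM in DM-PBS, 763, 863 and 851 CPM in GM-AA, and 862, 888 and 888 CPM in GM-PBS. It rose by 0.22 ± 0.056 in DM (edgeR adjusted p = 0.00369), but the third DM-PBS library was lower than the other two, and without it the adjusted p was 0.0556. The condensin genes Smc4 and Ncapg rose by 0.24 ± 0.048 and 0.32 ± 0.085, the call for Ncapg being lost without the third DM-AA library (edgeR adjusted p = 0.0945). Ncapd2, another condensin subunit, differed by 0.09 ± 0.057 and did not pass (edgeR adjusted p = 0.286).

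**Figure D2:**
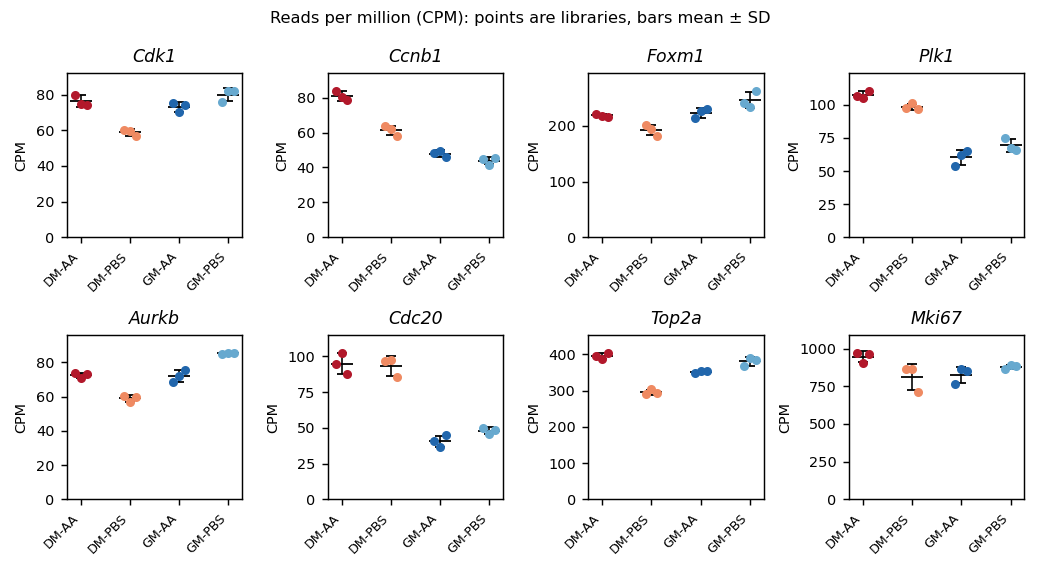
CPM of 8 of the genes in the 4 groups; points are libraries and bars are the mean and SD of 3 libraries, on linear axes that start at 0. Cdk1, Aurkb and Top2a are lowest in DM-PBS, Ccnb1 and Plk1 are higher in both DM groups than in both GM groups, and Cdc20 differs between media with overlapping AA and PBS libraries in DM.

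Markers of muscle differentiation moved in the same comparison. A list of 9 of them (among them Myog, Myh3, Actc1 and Acta1) summed to 280 to 352 CPM in DM-AA, against 160 to 173 CPM in DM-PBS. The same list summed to 135 to 160 CPM in GM-AA, against 112 to 122 CPM in GM-PBS. Between DM-PBS and GM-PBS the list split, with 4 higher in DM-PBS, 2 lower and 3 not past the test. Over all tested genes 27.0% were called higher and 27.4% lower there. Mean levels in DM-PBS and GM-PBS were 70.2 and 11.8 CPM for Myog. They were 16.9 and 42.8 CPM for Acta1, and 4.49 and 9.04 CPM for Myh3. Of the 9, 8 rose with AA in DM, with a median log2 fold change of 1.49, where 12.6% of all tested genes were called higher. Their part in the changes of the mitotic genes was not tested. The libraries' relation to GC content also differed with AA. Across genes, the rank correlation of a library's deviation with GC content was -0.149 to -0.0606 in DM-AA, 0.129 to 0.157 in DM-PBS, -0.178 to -0.123 in GM-AA and 0.00720 to 0.218 in GM-PBS, where the first library stood highest. The 43 genes had a median GC content of 47.8%, against 50.2% for all tested genes. With the trend over GC content and length removed, 37 of the 43 genes rose with AA in DM and 0 fell. The share of all tested genes in that fit was not taken.

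Some of these genes share exon sequence with a gene on the opposite strand, and no source used here says whether the counting used strand, so reads of the 2 partners cannot be told apart. The largest overlaps were 29.3% of exon bases for Kif20a (with Cdc23), 22.8% for Ube2c (with Tnnc2), 15.1% for Kif4 (with Pdzd11) and 13.4% for Ncapg (with Lcorl). Next came 12.7% for Cdc25c (with Gm3550), 12.5% for Ccna2 (with Exosc9) and 11.1% for Prc1 (with Rccd1). The fast-muscle troponin gene Tnnc2 itself rose, to 4.98 ± 1.53 CPM in DM-AA, against 1.15 ± 0.246 CPM in DM-PBS (SD, n = 3 each, edgeR adjusted p = 6.92e-07). Ube2c itself averaged 124 CPM in DM-AA and 86.5 CPM in DM-PBS. Cdc23 had 71.6 ± 3.78 CPM in DM-AA and 69.6 ± 1.52 CPM in DM-PBS, a difference of 0.04 ± 0.065 on the log2 scale. Lcorl differed with AA by 0.24 ± 0.10 in DM, which did not pass (edgeR adjusted p = 0.0831). In GM it rose by 0.29 ± 0.090 (edgeR adjusted p = 0.0214).

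The second comparison put the same treatment into growth medium. In GM-AA against GM-PBS, 0 of the 43 genes rose and 9 fell, while 34 did not pass. Over all genes tested, 9.76% were called higher and 11.0% lower. The median log2 fold change of the 43 genes was -0.07, with 31 below 0 and 12 above it. At an unadjusted p under 0.05, 0 were higher and 17 lower, against 1928 and 2083 of all 12230 tested genes. DESeq2 called 0 higher and 5 lower, and its share over all genes was not taken. The count of 9 rested on single libraries. It was 4 without the first GM-AA library or without the third GM-PBS library, 5 without the second GM-AA or the first GM-PBS library, and 12 without the third GM-AA library. Taking out the trend over GC content and length gave 15, and fitting only the GM groups gave 5. Counts of 4 or 5 of the 43 genes lay near the 11.0% of all genes called lower in the main fit. The shares of all genes in those alternative fits were not taken.

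The 9 genes came from several roles. Ncapd2 fell by 0.27 ± 0.056 on the log2 scale (edgeR adjusted p = 0.000588), with 96.9, 113 and 106 CPM in GM-AA, against 135, 125 and 119 CPM in GM-PBS. Aurkb fell by 0.25 ± 0.054 (edgeR adjusted p = 0.00111) and Incenp by 0.19 ± 0.051 (edgeR adjusted p = 0.00615). These 3 passed in every alternative fit tried, and in each of them every GM-AA library lay below every GM-PBS library. Cdc20 fell by 0.24 ± 0.078, Plk1 by 0.20 ± 0.065, Espl1 by 0.18 ± 0.059, Bub1b by 0.16 ± 0.058, Smc2 by 0.15 ± 0.049 and Foxm1 by 0.14 ± 0.050, with edgeR adjusted p-values between 0.0230 and 0.0474. Each of these 6 lost its call in at least one alternative fit. Top2a, at -0.12 ± 0.044, lay just outside the threshold (edgeR adjusted p = 0.0516). Ccnb1 and Cdc25b had every GM-AA library above every GM-PBS library, at 0.12 ± 0.066 and 0.09 ± 0.048, and neither passed (edgeR adjusted p = 0.186 and 0.173). Cenpf differed by 0.00 ± 0.050 (edgeR adjusted p = 0.975).

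**Figure D3:**
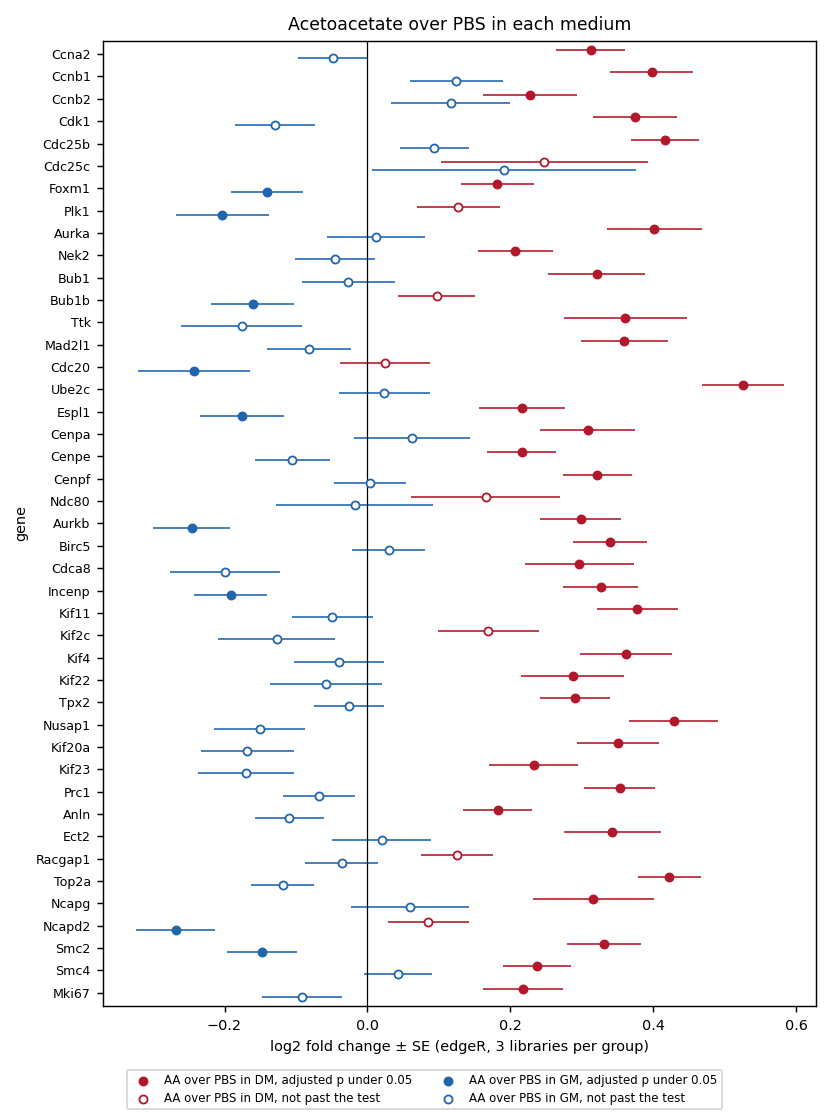
Log2 fold change of AA over PBS for each of the 43 genes in DM and in GM, with SE bars; filled points passed the 5% false discovery rate. In DM all 43 points lie right of 0 and 35 are filled, and in GM 9 are filled, all left of 0.

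Whether AA acted differently in the 2 media was tested as the difference of its effects. The effect in DM minus that in GM was above 0 for all 43 genes, with a median of 0.33 on the log2 scale and a range of 0.06 for Cdc25c to 0.58 for Nusap1. Of the 43, 31 passed as higher and 0 as lower, where 2.58% of all tested genes were called higher and 2.67% lower. At an unadjusted p under 0.05, 40 were higher and 0 lower, against 1010 and 1090 of all 12230 tested genes. DESeq2 called 28 higher and 0 lower, and its share over all genes was not taken. Of the 9 differentiation markers, 5 were also called higher in this test, with a median of 0.97, and their part in the differences of the mitotic genes was not tested.

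By role, all 4 chromosomal passenger genes and all 3 mitotic kinases passed, as did 5 of 6 cytokinesis genes and 5 of 7 checkpoint and APC/C genes. Of the Cdk1 engine 4 of 7 passed, of the spindle motors and microtubule factors 4 of 6, of the chromosome structure genes 4 of 6 and of the kinetochore genes 2 of 4. The smallest edgeR adjusted p-values were those of Top2a (difference 0.54 ± 0.062, 1.56e-06), Incenp (0.52 ± 0.073, 1.90e-05) and Aurkb (0.54 ± 0.079, 2.63e-05). Plk1, which did not pass with AA in DM alone, passed here at 0.33 ± 0.087 (edgeR adjusted p = 0.0178), but not without the first GM-AA, the first GM-PBS or the third DM-AA library. The call for Bub1 was lost without any one of 7 of the 12 libraries, and those for Nek2 and Ect2 without any one of 10. The calls for Bub1, Nek2 and Ect2 were also lost with DESeq2. That for Nek2 was lost as well with no filter on low counts and with replicate numbers fitted as a block. Adjusted p-values in these fits were at most 0.130 for Nek2, 0.129 for Ect2 and 0.0648 for Bub1. The call for Mki67 was lost without the third DM-PBS library (edgeR adjusted p = 0.0558). Among the 12 that did not pass were the cyclin B genes, Ccnb1 at 0.27 ± 0.088 (edgeR adjusted p = 0.0644) and Ccnb2 at 0.11 ± 0.11 (edgeR adjusted p = 0.672), and also Cdc20 at 0.27 ± 0.10 (edgeR adjusted p = 0.128).

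Across the 43 genes, the effects of AA in DM and in GM, which share no library, had a Pearson correlation of 0.350 and a Spearman correlation of 0.289. Both sets of effects also ran with GC content, with Spearman correlations of -0.336 in DM and -0.314 in GM over the same genes. These are descriptions across genes, which are not independent replicates.

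The medium comparisons reuse the libraries of the AA comparisons, so their values are set side by side and not correlated. In DM-PBS against GM-PBS, 14 of the 43 genes were higher and 17 lower, where 27.0% of all tested genes were called higher and 27.4% lower. The 12 others did not pass, and the median log2 fold change was -0.05, in a range of -0.76 for Smc2 to 1.01 for Ccnb2. As shares of the 43 genes both counts were higher than those of all tested genes, the lower count more so, and this was not tested. Counts by role are given as a description, and differences between roles were not tested. All 4 chromosomal passenger genes and 5 of 6 chromosome structure genes were lower in DM-PBS, and 0 of either group were higher. In these groups the calls for Birc5, Cdca8 and Ncapg were lost in at least one alternative fit. Of the 4 kinetochore genes 3 were higher and 0 lower, and of the 3 mitotic kinases 2 were higher and 0 lower. The Cdk1 engine split, with 3 higher and 2 lower, as did the checkpoint and APC/C genes, with 3 higher and 4 lower.

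Some genes that act together in mitosis differed in direction, while others, such as the 4 chromosomal passenger genes, ran the same way. The genes below are examples, and differences between partners were not tested. Ccnb2 had 52.7, 55.5 and 53.6 CPM in DM-PBS, against 28.2, 24.4 and 27.8 CPM in GM-PBS, and was 2.01-fold higher (edgeR adjusted p = 2.16e-13). Ccnb1 was 1.40-fold higher in DM-PBS than in GM-PBS, whereas their kinase gene Cdk1 was lower, with a log2 fold change of -0.44 ± 0.058 (edgeR adjusted p = 7.51e-08). Cdc20 was 1.94-fold higher (log2 0.96 ± 0.069, edgeR adjusted p = 9.16e-14), and Mad2l1, which restrains it, had a log2 fold change of -0.33 ± 0.061. Plk1 had a log2 fold change of 0.50 ± 0.061 and Aurkb one of -0.53 ± 0.056. Cenpa was 1.68-fold higher, Cdc25c 1.79-fold and Kif2c 1.42-fold, while Smc2 stood at 0.592 of its GM-PBS level (edgeR adjusted p = 1.28e-14). Aurka had a log2 fold change of -0.01 ± 0.069 between the media, and Ccna2 one of -0.02 ± 0.049, and neither passed (edgeR adjusted p = 0.940 and 0.763).

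With AA in both media, DM-AA against GM-AA, 31 of the 43 genes were higher and 1 lower, where 25.9% of all tested genes were called higher and 26.3% lower. The median log2 fold change was 0.30. The lower gene was Smc2, at -0.28 ± 0.050 (edgeR adjusted p = 1.78e-05). The highest was Cdc20, 2.34-fold higher in DM-AA than in GM-AA (log2 1.23 ± 0.071), followed by Ccnb2 at 2.17-fold, Cenpa at 1.99-fold and Kif20a at 1.91-fold. All 3 mitotic kinases, all 4 kinetochore genes and all 6 cytokinesis genes were higher. The libraries of Ndc80 overlapped, and its call was lost without the first GM-AA, the third GM-AA or the third DM-AA library (edgeR adjusted p = 0.0536 to 0.0608). Among the genes that were lower in DM-PBS than in GM-PBS, Cdk1 had a log2 fold change of 0.06 ± 0.057 with AA, Aurkb 0.01 ± 0.056, Incenp 0.03 ± 0.051 and Foxm1 -0.03 ± 0.050, and none of these 4 passed (edgeR adjusted p = 0.366 to 0.890). Top2a passed as higher with AA, at 0.17 ± 0.044 (edgeR adjusted p = 0.00118), against -0.37 ± 0.044 with PBS.

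**Figure D4:**
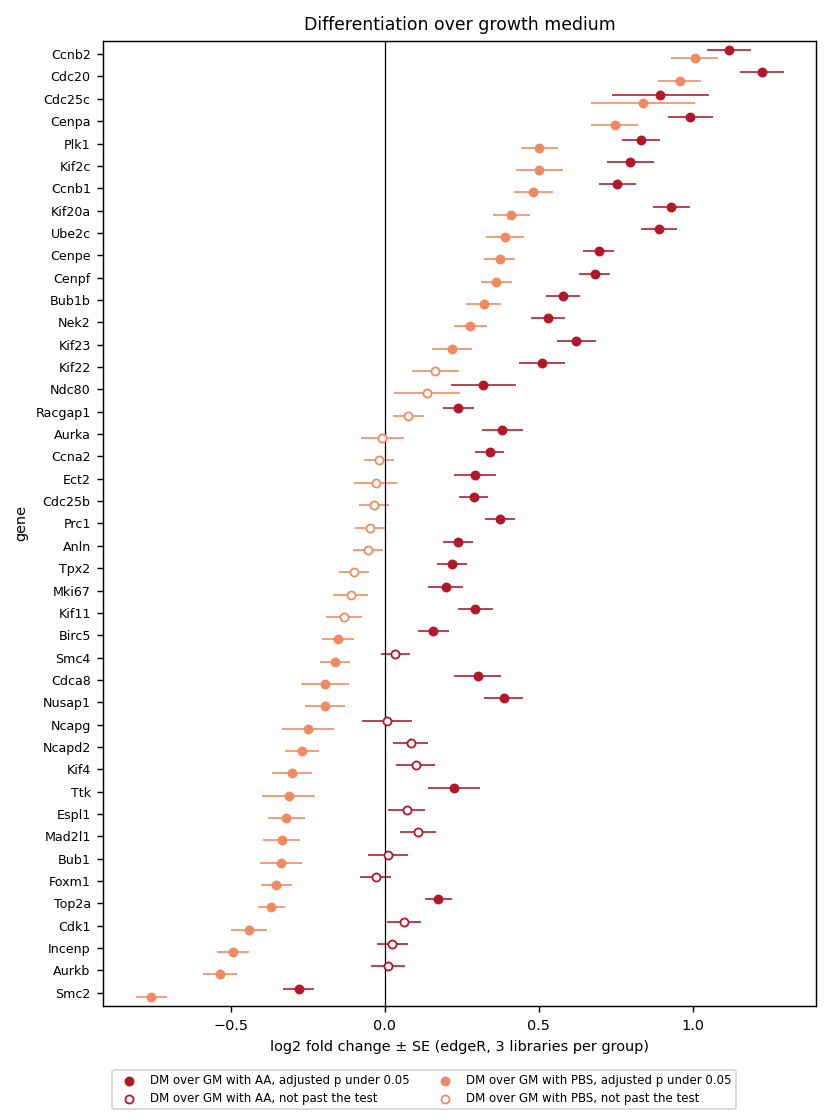
Log2 fold change of DM over GM for each of the 43 genes with AA in both media and with PBS in both, with SE bars and genes ordered by the PBS value; filled points passed the 5% false discovery rate. With AA 31 filled points lie right of 0 and 1 left of it, and with PBS 14 lie right and 17 left.

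A wider list of 99 other genes of G2, mitosis and their control, all of which passed the filter on low counts, was read in the same fits. With AA in DM, 52 of the 99 rose and 2 fell, where 12.6% of all tested genes were called higher and 13.8% lower, and the median log2 fold change was 0.21. The smallest p-values among those that rose belonged to E2f2 (0.66 ± 0.058), an E2F activator, its dimer partner Tfdp1 (0.39 ± 0.055), Sgol2 (0.39 ± 0.055), a guardian of centromeric cohesion, and E2f8 (0.46 ± 0.069), an E2F repressor. The 2 that fell were Rbl2 (-0.18 ± 0.056), which encodes the p130 subunit of DREAM, and the centromere gene Cenpm (-0.35 ± 0.12), and DESeq2 called neither. The count of 2 was 0 without the third DM-AA or the first DM-PBS library and 1 without the second of either group. By group, 16 of 28 kinetochore and checkpoint genes rose, 11 of 15 spindle genes, 8 of 17 genes of DREAM, MMB, E2F and NF-Y, 6 of 7 genes of cytokinesis and mitotic exit, 6 of 11 condensin and cohesin genes, and 5 of 12 regulators of Cdk1. Of the 9 APC/C and securin genes 0 rose (1 higher and 2 lower at an unadjusted p under 0.05). Differences between these groups were not tested.

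With AA in GM, 3 of the 99 rose and 14 fell, with a median of -0.07, where 9.76% of all tested genes were called higher and 11.0% lower, so the count that fell lay near the share of all genes. Those that fell with the smallest p-values were Numa1 (-0.27 ± 0.048), an organiser of spindle poles, Cdca5 (-0.41 ± 0.074), which encodes the cohesin protector sororin, Mastl (-0.29 ± 0.060), the Greatwall kinase gene, and Pkmyt1 (-0.32 ± 0.068), an inhibitory kinase of Cdk1. Arpp19, a phosphatase inhibitor switched on by Greatwall, rose by 0.19 ± 0.049, the cohesin gene Stag1 by 0.19 ± 0.064 and the kinetochore gene Zwint by 0.17 ± 0.058. Only 1 of these calls was left without the second GM-AA, the third GM-AA or the third GM-PBS library, and 1 with DESeq2. After the same removal of the GC and length trend, 0 rose and 24 fell, and the share of all tested genes in that fit was not taken. In the test of the difference between media, 33 of the 99 passed as higher and 0 as lower. Over all tested genes 2.58% passed as higher and 2.67% as lower. At an unadjusted p under 0.05 the counts were 63 and 0, against 1010 and 1090 of all 12230 tested genes. In DM-PBS against GM-PBS 14 were higher and 58 lower, where 27.0% of all tested genes were called higher and 27.4% lower. In DM-AA against GM-AA 34 were higher and 29 lower, where 25.9% of all tested genes were called higher and 26.3% lower. Only the lower count lay near its share.

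A list of 30 DNA replication genes, which act in the preceding S phase, was read as a second point of reference. With AA in DM 17 of the 30 rose and 0 fell, where 12.6% of all tested genes were called higher and 13.8% lower. With AA in GM 0 rose and 12 fell, where the shares of all tested genes were 9.76% and 11.0%. The medium comparisons ran one way for this list. In DM-PBS against GM-PBS 0 were higher and 29 lower, with a median log2 fold change of -1.13. The shares of all tested genes there were 27.0% higher and 27.4% lower. In DM-AA against GM-AA 1 was higher and 29 lower, with a median of -0.71, against 25.9% and 26.3% of all tested genes. The higher one was the clamp loader gene Rfc3, at 0.20 ± 0.082 (edgeR adjusted p = 0.0358), a call that was lost with DESeq2, with no filter on low counts, and without the second GM-AA, the third GM-AA, the first DM-AA or the second DM-AA library. In the same comparisons the 43 mitotic genes had medians of -0.05 with PBS and 0.30 with AA. The difference of the AA effects between media passed as higher for 19 of the 30 replication genes and as lower for 0. Over all tested genes 2.58% passed as higher and 2.67% as lower.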

How the data were processed

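RNA was sequenced from 12 libraries of C2C12 cells, 3 in each of 4 groups of medium and treatment. The submitters' processing notes name the aligner BWA (0.5.9-r16) and the mouse build mm9, while no source used here gives the counting rule, the annotation or the use of strand. The deposited table holds the authors' raw read counts and RPKM values for 23446 genes. The authors' RPKM values equal the deposited counts over gene length and a library divisor, within 0.000499%, and the counted reads are 63.2 to 64.9% of that divisor.

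The deposited counts were fitted with edgeR 4.0.16 (R 4.3.3): a filter on low counts by group left 12230 genes, TMM factors were 0.981 to 1.015, 4 group means were fitted to all 12 libraries, and quasi-likelihood tests were adjusted by Benjamini-Hochberg over all tested genes at 5%. The common biological coefficient of variation was 4.08%, with 8 residual degrees of freedom. CPM values use the TMM library sizes. SE is the log2 fold change over the square root of F. Counts were also simulated for the DM comparison, with 200 genes changed. Over 12095 genes, the fit recovered 56% of genes changed 1.25-fold and 81.6% of those changed 1.5-fold. It called 0.0672% of unchanged genes. In the data 12.6% of all tested genes were called higher and 13.8% lower in that comparison, so these rates may not hold for the data.

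The 43 members and the other lists were chosen with earlier results of these data known. Members given with the value of every library were Aurka, Aurkb, Birc5, Ccnb1, Cdc20, Cdc25b, Cdk1, Cenpa, Cenpf, Foxm1, Incenp, Kif11, Kif20a, Mad2l1, Mki67, Nek2, Nusap1, Plk1, Prc1, Smc2, Top2a and Ube2c, by a rule (8 fixed names, and in each role the 2 genes with the smallest p for AA in DM); the library values of Ccnb2, Cdc25c and Ncapd2 were added after their values were seen. Other G2/M genes were named by the 4 smallest p-values in each direction. GC content, from GENCODE M21 on GRCm38 and not the authors' build, was matched for 98.5% of genes and all 43 members. Alternatives were DESeq2 1.42.0, library sizes from the RPKM divisor, no filter, only the compared groups, a replicate block, removal of a GC and length trend, and leaving out each library.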

Additional observations from a re-analysis of the deposited data

Results flagged for a closer look

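For 31 of the 43 genes the effect of AA differed between the 2 media by the test of the difference itself. This was the edgeR test at a 5% false discovery rate over all tested genes, and the effect in DM was higher in all 31. Over all tested genes 2.58% were called higher and 2.67% lower. Of the 31 calls, 26 held in every alternative fit, and those for Plk1, Nek2, Bub1, Ect2 and Mki67 did not. The values are log2 differences, the effect in DM minus that in GM, and run from 0.25 to 0.58. Among the Cdk1 engine and its regulators they were 0.50 for Cdk1, 0.36 for Ccna2, 0.32 for Cdc25b and 0.32 for Foxm1. The mitotic kinases had 0.39 for Aurka, 0.33 for Plk1 and 0.25 for Nek2. The checkpoint and APC/C genes had 0.54 for Ttk, 0.50 for Ube2c, 0.44 for Mad2l1, 0.39 for Espl1 and 0.35 for Bub1. The kinetochore genes had 0.32 for Cenpf and 0.32 for Cenpe, and the chromosomal passenger genes 0.54 for Aurkb, 0.52 for Incenp, 0.50 for Cdca8 and 0.31 for Birc5. The spindle motors and microtubule factors had 0.58 for Nusap1, 0.43 for Kif11, 0.40 for Kif4 and 0.32 for Tpx2. The cytokinesis genes had 0.52 for Kif20a, 0.42 for Prc1, 0.40 for Kif23, 0.32 for Ect2 and 0.29 for Anln. The chromosome structure genes had 0.54 for Top2a, 0.48 for Smc2 and 0.35 for Ncapd2, and the proliferation marker Mki67 had 0.31. Groups of 3 libraries were too small for a test of single outlying libraries.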

How the results depend on the processing

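The medians over the 43 genes kept their sign in every alternative, at 0.28 to 0.34 for AA in DM, -0.11 to -0.05 for AA in GM, 0.32 to 0.35 for the difference of the 2 effects, 0.28 to 0.32 for DM against GM with AA and -0.07 to -0.02 with PBS. With AA in DM, 33 to 37 genes rose, 31 of them in every alternative, and the difference between media passed for 27 to 35 genes, 26 of them in every alternative. Shares of all tested genes in the alternatives were not taken. The count of 9 genes that fell with AA in GM was the one that moved: 15 with the GC and length trend removed, 15 with the replicate block and that removal together, 5 with only the compared groups fitted, 5 with DESeq2 and 4 to 12 when single libraries were left out, and the cause was not tested. No sign of pairing by replicate number was found. Correlations of deviations were -0.028 to 0.024 for same-numbered libraries and -0.076 to 0.082 for differently numbered ones. With 3 libraries per group this cannot exclude shared cultures. The replicate block alone gave 35 genes higher with AA in DM, 7 lower with AA in GM and 30 higher for the difference. Sign changes were found for 19 values that passed in no fit concerned (edgeR adjusted p of at least 0.367). With the GC and length trend removed, AA in GM gave -0.055 for Cenpf, -0.0046 for Birc5, -0.067 for Ect2, -0.035 for Ncapg and -0.044 for Smc4, and with the replicate block as well -0.054, -0.0045, -0.067, -0.035 and -0.044 for the same genes. For DM against GM with PBS, library sizes from RPKM gave 0.0066 for Ccna2 and 0.019 for Aurka, the GC and length removal gave 0.0021 for Aurka and the block with it 0.0026. For DM against GM with AA, Incenp had -0.00044 with the removal and -0.00017 with the block as well. When single libraries were left out, AA in DM ran from -0.033 to 0.079 for Cdc20. AA in GM ran from -0.11 to 0.038 for Ndc80, -0.080 to 0.013 for Bub1, -0.020 to 0.071 for Ect2, -0.037 to 0.059 for Aurka, -0.013 to 0.081 for Ube2c, -0.023 to 0.021 for Cenpf and -0.045 to 0.39 for Cdc25c. DM against GM with PBS ran from -0.031 to 0.026 for Aurka, -0.072 to 0.016 for Ect2 and -0.049 to 0.021 for Ccna2, and with AA from -0.027 to 0.048 for Aurkb, -0.022 to 0.047 for Bub1 and -0.098 to 0.068 for Ncapg. The difference of effects ran from -0.14 to 0.29 for Cdc25c, whose 37 to 154 reads per library limit it.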
